A study of Homo sapiens with 24 samples.

Results

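HEK293A cells without LATS1 and LATS2 were compared with HEK293A cells without YAP and TAZ, both grown on soft matrix. The comparison took the 3 libraries labelled LATS1/2-dKO (LATS dKO) and the 3 labelled YAP/TAZ-dKO (YAP/TAZ dKO) on 1 kPa hydrogels, 6 of the 24 libraries of the series. Genes entered where the FPKM, a fragment count scaled to transcript length and to the mapped fragments of the library, was at least 1 in 3 or more of these 6 libraries, which kept 14504 of 58174 gene symbols. A gene under 1 FPKM in every library of one line could pass only through the other line, which fixed the direction of its difference. HEK293A cells grow attached and descend from human embryonic kidney. All cells were grown in medium with serum and seeded on hydrogels coated with fibronectin, with no further treatment. The series also holds wild type (WT) cells, cells labelled RAP2A/B/C-tKO (RAP2 tKO), and every genotype on 40 kPa, each in 3 biological replicates. WT cells on 1 kPa serve below as the common reference, and both lines on 40 kPa as separate libraries of the same cells. The labels do not say by which edits the lines were made or whether each is 1 clone. Genotype and line can therefore not be told apart.

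The Hippo pathway is a kinase cascade that limits growth. Its last kinases, LATS1 and LATS2, phosphorylate the coactivators YAP (gene YAP1) and TAZ (gene WWTR1), which holds them in the cytoplasm and promotes their degradation. Unphosphorylated YAP and TAZ enter the nucleus, bind the TEAD transcription factors and switch on genes such as CTGF, CYR61 and ANKRD1. Soft matrix is known to keep YAP and TAZ out of the nucleus. The comparison thus sets a line in which their main restraint is removed against a line in which they are removed themselves.

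Depth, worked out from the confidence intervals in the tables, was 24.1 to 30.7 M fragments (M, mega) in the LATS dKO libraries and 31.1 to 39.1 M fragments in the YAP/TAZ dKO libraries. The FPKM of all genes summed to between 904869 and 913869 in the former and between 845082 and 851197 in the latter. In all 3 YAP/TAZ dKO libraries, and in none of the LATS dKO libraries, 22 entries of very deep coverage had been given no value by the authors' software. Median-ratio factors over all genes lay between 0.994 and 1.01, so the bulk of genes was on 1 scale in all 6 libraries. The labels name an index set A or B of the library kit without saying which library got which, so no batch could be tested. RNA of a gene that carries a small disrupting edit can persist, and fewer cells with a transcript cannot be told apart from less of it per cell in RNA from whole cultures.

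The lines differed at most expressed genes, mostly by small amounts. In limma, 8527 of the 14504 genes (58.8%) differed at a Benjamini-Hochberg adjusted p under 0.05, 4438 higher in LATS dKO (30.6%) and 4089 higher in YAP/TAZ dKO (28.2%). The libraries of one line did not overlap those of the other at 9558 genes (65.9%), higher in LATS dKO at 33.9% and in YAP/TAZ dKO at 32.0%. Called genes at least 2-fold apart, that is by 1 or more on the log2(FPKM + 1) scale, numbered 968 (6.67%), 539 of them higher in LATS dKO (3.72%) and 429 higher in YAP/TAZ dKO (2.96%). With a pseudocount of 0.1 in place of 1 the 2-fold genes numbered 1517, since the added 1 shrinks differences of weakly expressed genes. The median difference over all tested genes was 0.006. Every log2 difference below is LATS dKO minus YAP/TAZ dKO on this scale unless another pair is named, and "called" refers to limma's adjusted p.

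**Figure D1:**
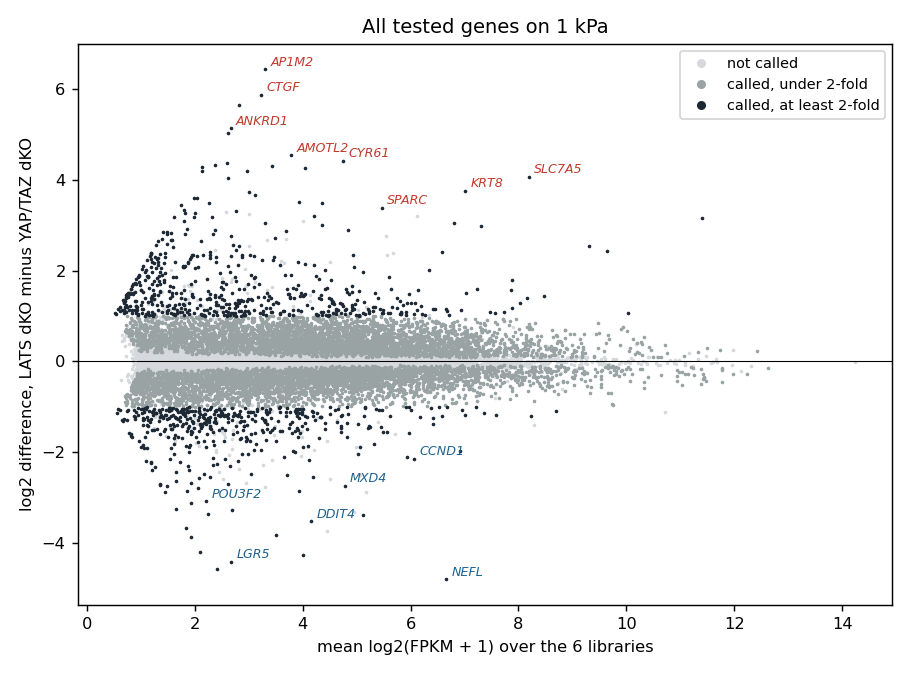
Log2 difference between LATS dKO and YAP/TAZ dKO on 1 kPa (vertical axis) against the mean log2(FPKM + 1) of the 6 libraries (horizontal axis), 1 point per tested gene. Dark points are the 968 called genes at least 2-fold apart; AP1M2 and CTGF stand highest and NEFL lowest among the labelled genes.

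The targeted genes came first. YAP1 (ENSG00000137693.13, hg19 chr11:101981192-102104154) stood at 31, 32.4 and 30.2 FPKM in the 3 LATS dKO libraries and at 6.16, 6.17 and 5.86 in the 3 YAP/TAZ dKO libraries, against 30.9 ± 1.05 in WT (SD, n = 3). YAP1 RNA in LATS dKO was 0.01 from WT (limma adjusted p = 0.867), and its difference between the lines was 2.19 ± 0.05 (SE, limma adjusted p = 2.39e-10). WWTR1 (ENSG00000018408.14, chr3:149235022-149454501), which encodes TAZ, gave 26.2, 24.8 and 24.5 FPKM in LATS dKO and 10.3, 11 and 8.8 in YAP/TAZ dKO, with 27.3 ± 3.01 in WT. The difference at WWTR1 was 1.25 ± 0.12, and the 50 nearest tested genes on chromosome 3 had a median difference of 0.65, a point taken up further on. Both genes kept RNA in the line labelled without them.

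LATS1 (ENSG00000131023.12, chr6:149979289-150039392) was lower in the line that lacks it, at 4.97, 5.04 and 5.53 FPKM against 13, 14.5 and 13.3 in YAP/TAZ dKO and 12.9 ± 1.03 in WT (log2 difference -1.24, limma adjusted p = 3.48e-07). LATS2 (ENSG00000150457.8, chr13:21547171-21635686) ran the other way. It measured 3.24, 2.94 and 3.38 FPKM in LATS dKO, 1.29, 0.748 and 0.735 in YAP/TAZ dKO and 2.16 ± 0.358 in WT, so that the line labelled as lacking LATS2 held the most LATS2 RNA of the 3 (difference 1.13, adjusted p = 3.93e-05 in limma). LATS2 is itself a known target of YAP and TAZ. Its RNA level does not check the label.

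Known targets of YAP, TAZ and TEAD held 4 of the 15 largest differences toward LATS dKO (CTGF, ANKRD1, AMOTL2 and CYR61). Of the 22 genes of a published target signature 20 were tested, and 16 of these were called higher in LATS dKO, against 30.6% of all tested genes. In 12 the difference was at least 2-fold, against 3.72% of all genes. The median over the 20 was 1.11. CTGF, ANKRD1 and MYOF were under 1 FPKM in each YAP/TAZ dKO library. They passed the filter through LATS dKO alone, so the filter fixed their direction within these counts. CTGF (connective tissue growth factor, a secreted matricellular protein, ENSG00000118523.5, chr6:132269316-132272513) had 67.9, 70.2 and 74 FPKM in the LATS dKO libraries and 0.246, 0.247 and 0.198 in the YAP/TAZ dKO libraries. No value of one line came near the other, and WT lay between them at 6.55 ± 0.368 (difference 5.86 ± 0.05, limma adjusted p = 3.89e-13).

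ANKRD1 (ENSG00000148677.6, chr10:92671853-92681033), a cardiac and endothelial ankyrin-repeat protein found in nucleus and sarcomere, had 38.7, 34.4 and 36.7 FPKM in LATS dKO and 0.0779, 0.0494 and 0.0841 in YAP/TAZ dKO. It was close to silent in the second line and low in WT, at 0.877 ± 0.239 (difference 5.13, limma adjusted p = 5.52e-11). CYR61 (ENSG00000142871.15, chr1:86046444-86049645), the matricellular relative of CTGF, gave 118, 121 and 130.1 against 5.01, 4.62 and 4.82 FPKM, with 14.8 ± 0.932 in WT (difference 4.41). AMOTL2 (ENSG00000114019.14, chr3:134074716-134094321), an angiomotin that binds YAP and feeds back on the pathway, gave 62.8, 67.3 and 66.6 against 2.29, 1.55 and 1.82 FPKM, with 9.18 ± 1.71 in WT (difference 4.54). In all 4 genes both lines left the WT level, LATS dKO upward and YAP/TAZ dKO downward, each called against WT in limma. The 2 comparisons with WT share the WT libraries and are set side by side only: for CTGF LATS dKO minus WT was 3.25 and YAP/TAZ dKO minus WT -2.62, and for ANKRD1 they were 4.33 and -0.80. For CYR61 the same differences were 2.97 and -1.44.

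The remaining 12 signature genes called higher in LATS dKO ranged from 0.48 to 2.58. MYOF, a membrane-repair protein, had 6.02, 5.61 and 5.89 FPKM in LATS dKO and 0.148, 0.225 and 0.0726 in YAP/TAZ dKO. CCDC80, a secreted matrix protein, had 8.46, 8.64 and 7.64 and 1.14, 0.739 and 0.695 FPKM (difference 2.32). It lies in the same stretch of chromosome 3 as WWTR1 and AMOTL2, where the neighbouring genes had a median of 0.64. TGFB2, a TGF-beta ligand, had 3.17, 4.23 and 2.57 and 0.648, 1.07 and 0.783 FPKM (difference 1.23), and here YAP/TAZ dKO was not called against WT (adjusted p = 0.321 in limma). ARHGEF17 differed by 1.90, CRIM1 by 1.37, FJX1 by 1.05, IGFBP3 by 1.10 and PTPN14, a phosphatase that binds YAP, by 0.99. F3, RBMS3 and NUAK2, all below 2.5 FPKM, differed by 0.51, 0.64 and 0.48, without overlap between the lines.

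Not every signature member followed. GADD45A stood at 13.1 ± 0.474 and 14.1 ± 1.22 FPKM, ASAP1 at 41.1 ± 1.79 and 43.2 ± 4.05, and DOCK5 at 4.37, 4.82 and 6.66 in LATS dKO and 4.56, 4.84 and 5.53 in YAP/TAZ dKO. None of the 3 was called, and their libraries overlapped. FOXF2, a forkhead factor, was the single member called the other way, at 9.77, 8.64 and 9.55 FPKM in LATS dKO and 20.7, 20.5 and 20.5 in YAP/TAZ dKO (difference -1.06, limma adjusted p = 1.81e-07). AXL and NT5E did not pass the filter on low values.

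**Figure D2:**
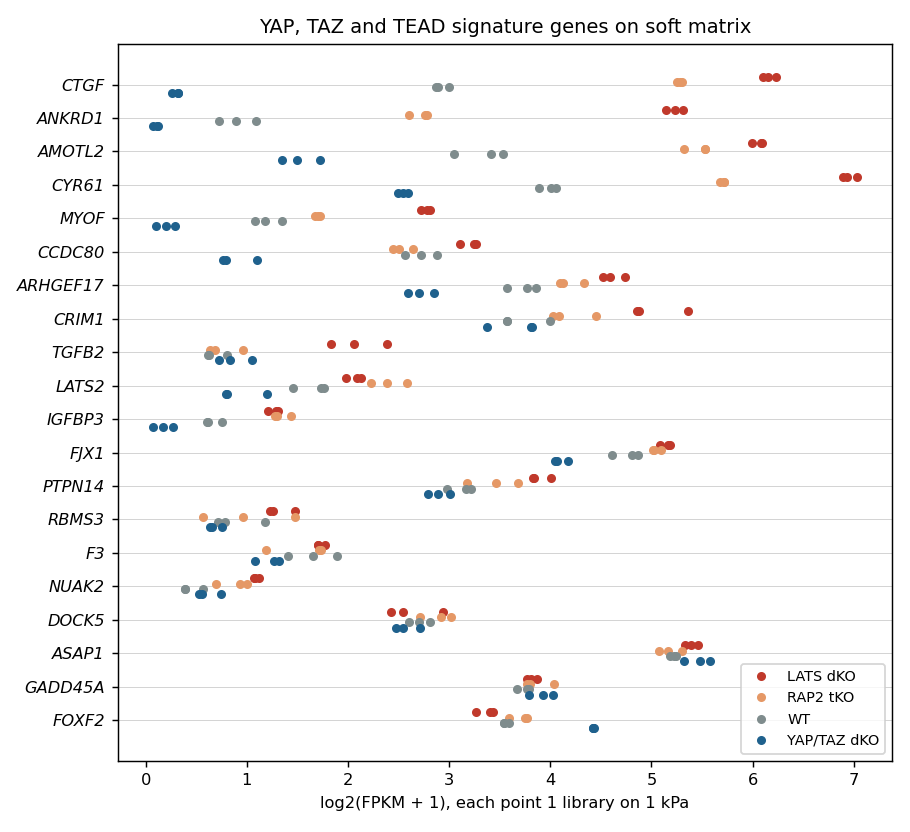
Log2(FPKM + 1) of the 20 tested signature genes (rows) in each of the 12 libraries on 1 kPa, 1 point per library, coloured by genotype. For CTGF, ANKRD1, CYR61 and AMOTL2 the LATS dKO points lie rightmost and the YAP/TAZ dKO points leftmost with WT between them; FOXF2 is reversed.

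TEAD factors bind the letters CATTCC, or GGAATG on the other strand. Promoters of 5 genes far apart between the lines are shown because they hold these letters near the start, and they were chosen for that. The sequences are from RefSeq on build GRCh38.p14, written along the gene's own strand from 250 bases before the annotated start to 30 after it, with the 6 letters in capitals. CTGF (CCN2 in RefSeq, minus strand, chr6:131951343-131951622) has 3 matches, beginning 169, 104 and 95 bases before the start. ANKRD1 (minus strand, chr10:90921058-90921337) has 2, at 220 and 128 bases before it. AMOTL2 and AJUBA each have 2 annotated promoters, of which 1 holds a match and is printed (AMOTL2, minus strand, chr3:134374418-134374697, 69 bases before the start; AJUBA, minus strand, chr14:22976813-22977092, 59 bases). WTIP (plus strand, chr19:34481508-34481787) has 3, at 117 and 83 bases before the start and at the start itself.
CTGF: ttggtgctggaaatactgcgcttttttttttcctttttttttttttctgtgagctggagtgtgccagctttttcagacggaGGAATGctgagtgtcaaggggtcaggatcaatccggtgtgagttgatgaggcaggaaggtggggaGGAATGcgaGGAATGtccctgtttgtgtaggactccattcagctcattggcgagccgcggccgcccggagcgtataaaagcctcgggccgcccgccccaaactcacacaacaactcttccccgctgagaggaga
ANKRD1: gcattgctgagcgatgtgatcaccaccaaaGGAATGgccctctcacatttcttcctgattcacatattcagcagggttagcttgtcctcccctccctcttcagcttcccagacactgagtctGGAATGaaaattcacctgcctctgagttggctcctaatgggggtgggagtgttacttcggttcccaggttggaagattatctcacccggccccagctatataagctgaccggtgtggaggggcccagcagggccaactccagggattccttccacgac
AMOTL2: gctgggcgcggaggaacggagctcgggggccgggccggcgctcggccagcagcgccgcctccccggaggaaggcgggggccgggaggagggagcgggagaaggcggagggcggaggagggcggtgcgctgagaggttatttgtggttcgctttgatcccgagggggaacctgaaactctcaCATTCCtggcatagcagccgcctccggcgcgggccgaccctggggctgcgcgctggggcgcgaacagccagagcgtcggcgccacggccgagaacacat
AJUBA: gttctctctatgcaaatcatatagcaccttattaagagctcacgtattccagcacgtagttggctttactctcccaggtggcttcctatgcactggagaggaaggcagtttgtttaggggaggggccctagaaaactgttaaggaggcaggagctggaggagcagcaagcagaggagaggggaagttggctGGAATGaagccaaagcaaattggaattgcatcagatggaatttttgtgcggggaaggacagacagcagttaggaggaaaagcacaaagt
WTIP: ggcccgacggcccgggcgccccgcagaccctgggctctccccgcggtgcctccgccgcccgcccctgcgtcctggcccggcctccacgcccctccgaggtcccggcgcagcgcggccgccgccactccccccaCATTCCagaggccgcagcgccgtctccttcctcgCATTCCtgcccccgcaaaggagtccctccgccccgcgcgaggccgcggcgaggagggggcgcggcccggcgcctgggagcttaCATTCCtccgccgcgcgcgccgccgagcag

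Over the 300 bases around each start (250 before, 50 after), CATTCC or GGAATG occurred in 4928 of all 35116 promoters of the table. It occurred in 11.2% of the 14947 promoters of tested genes, for which 10264 of the 14504 genes could be matched by symbol. Among promoters of genes called 2-fold higher in LATS dKO the share was 17.9% (100 of 558). Among those of genes called 2-fold higher in YAP/TAZ dKO it was 9.39% (40 of 426). The 14 matched signature genes had a match in 8 of 15 promoters. A match describes the letters only and shows no binding, and most TEAD sites are known to lie in distant enhancers that these windows do not cover.

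Components upstream of LATS also differed, led by the Ajuba family of LIM proteins, which bind and restrain LATS. AJUBA (ENSG00000129474.15, chr14:23440383-23451851) had 66.5, 66.1 and 71.1 FPKM in LATS dKO and 4.94, 4.33 and 6.29 in YAP/TAZ dKO, a gap without overlap (difference 3.49, limma adjusted p = 1.82e-09). WT had 6.9 ± 0.535, much nearer to YAP/TAZ dKO. WTIP, of the same family, had 12.4, 11.2 and 11.3 and 2.74, 3.02 and 2.36 FPKM (difference 1.77), while the third relative LIMD1 was not called (-0.06). Of 33 tested upstream genes 19 were called higher in LATS dKO and 1 lower (TAOK2, -0.33), against 30.6% of all tested genes called higher and 28.2% lower, with a median of 0.23. AJUBA and WTIP were the only 2 with a 2-fold gap. The core kinases STK4 and STK3 (MST1 and MST2) were not called, at 0.02 and -0.04. Their scaffold SAV1 differed by 0.84, NF2 (merlin) by 0.43, WWC2 by 0.94, FRMD6 by 0.78 and the angiomotins AMOT and AMOTL1 by 0.57 and 0.61. RAP2A, the GTPase upstream of MAP4K kinases, was not called (0.06), whereas RAP2B and RAP2C differed by 0.17 and 0.34. Of the 33 genes 7 lie in chromosome stretches that differed as a whole, described further on. Taken from the median of the 50 nearest tested genes, FRMD6 was at 0.29, AMOT at 0.12, AMOTL1 at 0.27, NF2 at 0.17, TAOK2 at -0.12, and RAP2B and RAP2C changed sign (-0.48 and -0.14).

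Among the TEAD factors themselves, TEAD1 was higher in LATS dKO, at 32.4, 32.2 and 32.5 FPKM against 11.1, 10.9 and 11.3 (difference 1.46, limma adjusted p = 1.65e-08), and so was TEAD4, at 51.5, 53 and 54.6 against 31.8, 31.7 and 32.3 (0.71). TEAD2 was lower in LATS dKO (-0.42, or -0.19 from its neighbours) and TEAD3 was not called (-0.06). Of the VGLL cofactors, which compete with YAP for TEAD, VGLL4 was lower in LATS dKO (-0.32) and VGLL3 higher (0.49).

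Genes of the actin cytoskeleton split. Of 22 tested targets of SRF and its cofactor MRTF, which respond to actin polymerization, 12 were called higher in LATS dKO and 4 lower, against 30.6% of all tested genes called higher and 28.2% lower, with a median of 0.24 and 6 genes 2-fold higher. CNN2 (calponin) had 55.2, 55.7 and 59.9 FPKM in LATS dKO and 5.75, 6.42 and 6.46 in YAP/TAZ dKO (difference 3.01). TPM1, a tropomyosin that stabilizes actin filaments, had 209, 228 and 220.4 and 41, 38.8 and 42 (difference 2.41). The 2 lines were far apart at both genes, but TPM1 in YAP/TAZ dKO was not called against WT, which had 41.4 ± 5.51, whereas CNN2 in WT, at 11.1 ± 0.708, was called above YAP/TAZ dKO. The crosslinkers FLNA and ACTN1 differed by 1.39 and 1.28 and TAGLN by 1.13. ACTN1 and TAGLN lie in shifted stretches and differed from their neighbours by 0.75 and 0.64, and ACTG1 and TPM4 differed from theirs by -0.14 and -0.18. SRF itself (-0.36), ACTG1 (-0.38) and TPM4 (-0.29) were lower in LATS dKO, and VCL (vinculin) was not called.

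Adhesion genes were mostly higher in LATS dKO, with 15 of 23 tested called higher and 1 lower (BCAR1, -0.53), against 30.6% of all tested genes called higher and 28.2% lower, and a median of 0.33. ITGA1, the collagen-binding integrin chain, had 11.4, 11.2 and 12.3 FPKM in LATS dKO and 1.81, 2.2 and 1.9 in YAP/TAZ dKO (difference 2.09). TNS3 (tensin) differed by 1.86, PARVA by 1.31, ITGB8 by 1.22 and FERMT2 (kindlin) by 1.12. Of the 23 genes 6 lie in shifted stretches, FERMT2 among them, and from the neighbours the differences were 0.53 for FERMT2 and 0.81 for ITGB8. PTK2 (focal adhesion kinase) and ILK were not called, at -0.00 and 0.02.

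Genes of caveolae, the small pits of the plasma membrane, stood apart further. CAV1, their main coat protein, had 53.9, 57.8 and 53.5 FPKM in LATS dKO and 5.35, 5.01 and 5.05 in YAP/TAZ dKO, with 33.2 ± 1.97 in WT (difference 3.19, limma adjusted p = 3.42e-10). PTRF (cavin-1) had 23.8, 23.8 and 23.5 and 0.588, 0.448 and 0.481, with 10.5 ± 0.595 in WT (difference 4.04). Both genes were strongly reduced in YAP/TAZ dKO against WT (-2.48 and -2.94) and moderately raised in LATS dKO (0.71 and 1.10), all 4 called. CAV2 differed by 1.45. Taken from the median of their neighbours, CAV1 was at 2.74 and CAV2 at 0.99. PRKCDBP (cavin-3) was listed at 0 in 2 of 3 YAP/TAZ dKO libraries and at 2.01, 1.94 and 2.23 FPKM in LATS dKO. In all, 5 of 7 tested genes of the list were called higher in LATS dKO and none lower, and the median was 1.45. PTRF, under 1 FPKM in each YAP/TAZ dKO library, passed the filter through LATS dKO alone, which fixed its direction. PRKCDBP could not have passed without LATS dKO either. Of all tested genes 30.6% were called higher in LATS dKO and 28.2% lower.

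Annexins and S100 proteins, which bind calcium and membranes or each other, differed in part. ANXA3 (annexin A3) had 48.6, 42.7 and 49.7 FPKM in LATS dKO and 2.48, 0.984 and 1.06 in YAP/TAZ dKO (difference 4.30), and ANXA1 had 49.9, 52.4 and 48.9 and 3.74, 3.79 and 3.09 (difference 3.50). ANXA2 and its partner S100A10 differed by 1.50 and 1.80. ANXA4, ANXA5, ANXA7, S100A11 and S100A13 were not called. Of 13 tested genes 8 were called higher in LATS dKO and none lower (median 0.31). The shares over all tested genes were 30.6% and 28.2%.

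Among secreted matrix proteins, 16 of 23 tested glycoproteins and proteoglycans were called higher in LATS dKO and 3 lower, against 30.6% of all tested genes called higher and 28.2% lower, with a median of 0.69. SPARC, a collagen-binding protein, had 142, 147 and 138 FPKM in LATS dKO and 11.5, 14.3 and 12.4 in YAP/TAZ dKO (difference 3.38, limma adjusted p = 1.71e-10), with 105 ± 7.41 in WT. LAMA4 and LAMB1, laminin chains of the basement membrane, differed by 2.45 and 1.65, and THBS1 (thrombospondin) by 2.18. SPARC, LAMA4 and LAMB1 were nearer to WT in LATS dKO than in YAP/TAZ dKO. For them YAP/TAZ dKO minus WT was -2.94, -2.17 and -1.52 and LATS dKO minus WT 0.44, 0.28 and 0.13. FN1 (fibronectin), the coat of the gels, was not called (0.13). NID2 (-1.17) and VCAN (-1.07) were higher in YAP/TAZ dKO. Of the 23 genes 5 lie in shifted stretches.

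Collagens went both ways, with 8 of 17 tested genes called higher in LATS dKO, 6 lower and a median of 0.03. The shares over all tested genes were 30.6% and 28.2%. COL3A1, a fibrillar collagen, had 8.91, 11.2 and 10.3 FPKM in LATS dKO and 0.0304, 0.0123 and 0.0137 in YAP/TAZ dKO (difference 3.45). COL12A1 had 8.77, 9.9 and 8.62 and 0.115, 0.205 and 0.257 (difference 3.08). Both were near silent in WT, at 0.146 and 0.327 FPKM, so that of these 3 genotypes LATS dKO alone held them at several FPKM. COL9A3 and COL5A2 were higher in LATS dKO as well (2.30 and 1.86), whereas COL9A2 (-1.41), COL6A2 (-1.30), COL5A1 (-1.12) and COL13A1 (-1.10) were at least 2-fold higher in YAP/TAZ dKO. COL1A1 was not called. The filter fixed the direction of COL3A1, COL12A1 and COL5A2, under 1 FPKM in each YAP/TAZ dKO library. The same held for COL9A2, under 1 FPKM in each LATS dKO library.

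Secreted growth factors and their binding proteins differed gene by gene. NRG1 (neuregulin, a ligand of ERBB3 and ERBB4) had 5.89, 6.9 and 6.62 FPKM in LATS dKO and 0.079, 0.255 and 0.189 in YAP/TAZ dKO, and 0.143 in WT (difference 2.67). HBEGF and EGFR differed by 0.99 and 0.68 (EGFR by 0.39 from its neighbours). Of 6 tested EGF family ligands and receptors 5 were called higher in LATS dKO and none lower, against 30.6% and 28.2% of all genes. NRG1, under 1 FPKM in each YAP/TAZ dKO library, passed the filter through LATS dKO alone, which fixed its direction. BMP4 had 24.8, 26.2 and 26 FPKM in LATS dKO and 5.31, 6.15 and 6.99 in YAP/TAZ dKO (difference 1.91), the latter not called against WT. From its neighbours on chromosome 14 BMP4 differed by 1.29. The TGF-beta list as a whole was even, 7 called each way among 20 (median 0.07), beside the same shares. Of its 20 tested genes 5 lie in shifted stretches. PMEPA1 (-1.06) and INHBB (-0.95) were lowest. Of the IGF-binding proteins, IGFBP7 had 13.6, 12.5 and 13.6 FPKM in LATS dKO and 1.7, 1.91 and 1.88 in YAP/TAZ dKO, IGFBP6 differed by 1.62, and IGFBP5 was higher in YAP/TAZ dKO (-1.25). CCL2, a chemokine, had 3.9, 2.8 and 3.19 FPKM in LATS dKO and 0, 0.0411 and 0.139 in YAP/TAZ dKO.

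Keratins and other epithelial genes that passed the filter were higher in LATS dKO. All 6 tested members were called that way, beside 30.6% of all tested genes, with a median of 2.15. KRT19 and CLDN7 were under 1 FPKM in each YAP/TAZ dKO library. They passed the filter through LATS dKO alone, so the filter fixed their direction. KRT19 had 36.5, 31.2 and 34.9 FPKM in LATS dKO and 0.0416, 0.0974 and 0.11 in YAP/TAZ dKO, with 15.4 ± 0.387 in WT (difference 5.02). KRT8 had 487, 484 and 452 and 34.6, 32.8 and 34.8 (difference 3.76, limma adjusted p = 2.94e-12), and its filament partner KRT18 differed by 2.97. KRT8 and KRT18 overlap each other on chromosome 12 and keratins have near-identical copies, so the split of fragments among them is uncertain. KRT17, chosen after its values were seen, had 7.63, 5.73 and 6.13 FPKM in LATS dKO and 0.0759, 0.0355 and 0.0683 in YAP/TAZ dKO. CLDN7 and OCLN, of tight junctions, differed by 1.32 and 1.03, OCLN by 0.32 from its neighbours. CDH1 and EPCAM, which define epithelia, did not pass the filter, and 5 of the 14 genes on the list were below 0.2 FPKM in all 6 libraries.

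The list of genes that mark HEK293 cells was checked in the same libraries, and 6 of its 8 genes were tested. Of these 5 were called higher in LATS dKO and none lower, 2 of them at least 2-fold (KRT8 and KRT18), with a median of 0.44. Of all tested genes 30.6% were called higher in LATS dKO and 28.2% lower. The list summed to between 1153 and 1209 FPKM in LATS dKO and between 314 and 326 in YAP/TAZ dKO. VIM (vimentin) stood at 221 ± 2.87 FPKM in LATS dKO and 181 ± 5.41 in YAP/TAZ dKO, and CDH2 was not called (-0.01). EYA1 and EYA4, kidney developmental genes, differed by 0.46 and 0.42. PAX2 and NEFM did not pass the filter. Fibroblast and smooth muscle markers summed to 24.8 to 26.4 FPKM in LATS dKO and 6.93 to 7.27 in YAP/TAZ dKO, 3 of 10 being tested and 4 of 10 below 0.2 FPKM in all 6 libraries. LUM (lumican, 8.47, 7.92 and 8.12 FPKM in LATS dKO) and COL3A1 carried that difference. Immune markers summed to between 4.91 and 6.93 FPKM and endothelial markers to at most 1.41. The part of other cell types in the matrix results was not tested.

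Toward YAP/TAZ dKO, the largest difference was at NEFL (neurofilament light chain, ENSG00000277586.1, chr8:24808468-24814624), a structural protein of axons. It had 17.6, 18.9 and 18.1 FPKM in LATS dKO and 496, 553 and 554 in YAP/TAZ dKO, with 17.4 ± 0.335 in WT (difference -4.80 ± 0.06, limma adjusted p = 2.54e-12). LATS dKO was not called against WT at NEFL (difference 0.06, limma adjusted p = 0.44), and the YAP/TAZ dKO libraries stood far above both. POU3F2, a neural transcription factor, had 0.602, 0.619 and 0.533 FPKM in LATS dKO and 12.1, 12.4 and 12.8 in YAP/TAZ dKO (difference -3.08). SYP (synaptophysin) and TUBB3 were also higher in YAP/TAZ dKO (-1.31 and -0.72, TUBB3 by -0.46 from its neighbours). GAP43 was higher in LATS dKO (0.52) but not against its neighbours (-0.20), NCAM1, MAP2, MAPT and RBFOX3 were not called, and 10 of the 22 neuronal genes were below 0.2 FPKM in all 6 libraries. Of 29 tested axon guidance genes, 13 were called higher in YAP/TAZ dKO and 11 in LATS dKO, against 28.2% and 30.6% of all tested genes, from SEMA6A (-1.43), UNC5B (-1.42) and ROBO2 (-1.42) to EFNA1 (1.49) and SEMA3E (1.63). Of the 29 genes 9 lie in shifted stretches.

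Wnt feedback genes were called in 1 direction. Of 14 tested, 9 were higher in YAP/TAZ dKO, none was higher in LATS dKO, and the median was -0.73. Of all tested genes 28.2% were called higher in YAP/TAZ dKO and 30.6% in LATS dKO. LGR5, the receptor that amplifies Wnt signals in stem cells (ENSG00000139292.12, chr12:71833550-71980090), had 0.35, 0.343 and 0.462 FPKM in LATS dKO and 28.3, 29.1 and 28.2 in YAP/TAZ dKO, with 6.83 ± 0.343 in WT (difference -4.42, limma adjusted p = 3.92e-11). Both lines left the WT level here, in opposite directions to CTGF (-2.50 and 1.92). SFRP1, a secreted antagonist, had 0.618, 0.576 and 0.439 and 5.91, 6.34 and 6.23 FPKM. LGR5 and SFRP1 were under 1 FPKM in each LATS dKO library. They passed the filter through YAP/TAZ dKO alone, so the filter fixed their direction within the count above. AXIN2, the common readout of the pathway, differed by -1.06 and FZD7 by -1.53, whereas RNF43 and ZNRF3 were not called (-0.23 and 0.11).

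Notch genes were called in both directions but mostly toward YAP/TAZ dKO, 12 of 14 tested against 2 toward LATS dKO, beside 28.2% and 30.6% of all tested genes, with a median of -0.66. HEY1, a Notch-induced repressor, had 19.6, 20.8 and 20.6 FPKM in LATS dKO and 72.3, 76.1 and 75.4 in YAP/TAZ dKO (difference -1.82). HES6 differed by -1.67, the ligands DLL1 and DLL3 by -1.19 and -0.91, JAG1 by -0.77 and HES1 by -0.64. The 2 exceptions were the receptor NOTCH2 (0.68) and the ligand JAG2 (0.25), which was at -0.21 from its neighbours on chromosome 14.

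Immediate-early genes, which serum and stress switch on within minutes, had a median of -0.66, with 13 of 21 tested called higher in YAP/TAZ dKO and 4 in LATS dKO, beside 28.2% and 30.6% of all tested genes. FOSB (-1.72) and JUND (-1.35) were at least 2-fold higher in YAP/TAZ dKO, and MYC had 81.8 ± 0.389 FPKM in LATS dKO and 154 ± 8.01 in YAP/TAZ dKO. The 4 called the other way were IER3 (1.59), ATF3 (1.30), FOSL1 (1.06) and DUSP1 (0.99). ATF3 had 54.4, 53.5 and 54.4 FPKM in LATS dKO and 19.2, 23.1 and 22.1 in YAP/TAZ dKO, the second not called against WT. EGR1 was not called (0.20). On 40 kPa FOSB, FOS and EGR3 were not called (0.18, 0.58 and 0.05), against -1.72, -0.73 and -0.79 on 1 kPa, where each was called. Their interaction with stiffness was not called (adjusted p in limma 0.265, 0.36 and 0.36). ATF3, FOSL1 and DUSP1 stayed called higher in LATS dKO on 40 kPa (1.52, 1.38 and 1.22). Feedback genes of the ERK pathway were called mainly toward YAP/TAZ dKO, 7 of 11, against 3 in LATS dKO (median -0.47), beside the same shares. Among the 7 were SPRED2 (-0.66), ETV5 (-0.57), SPRY1 (-0.50) and DUSP4 (-0.47), and among the 3 ETV4 (0.645). ETV4 was under 1 FPKM in each YAP/TAZ dKO library and DUSP5, another of the 7, in each LATS dKO library. The filter fixed the direction of both. Both lines were called below WT at ETV4 (LATS dKO -1.998, YAP/TAZ dKO -2.644) and ETV5 (-1.975 and -1.408). DUSP4 was above WT in both. Of the 11 genes 7 were called below WT and 2 above in LATS dKO, and 5 and 2 in YAP/TAZ dKO.

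**Figure D3:**
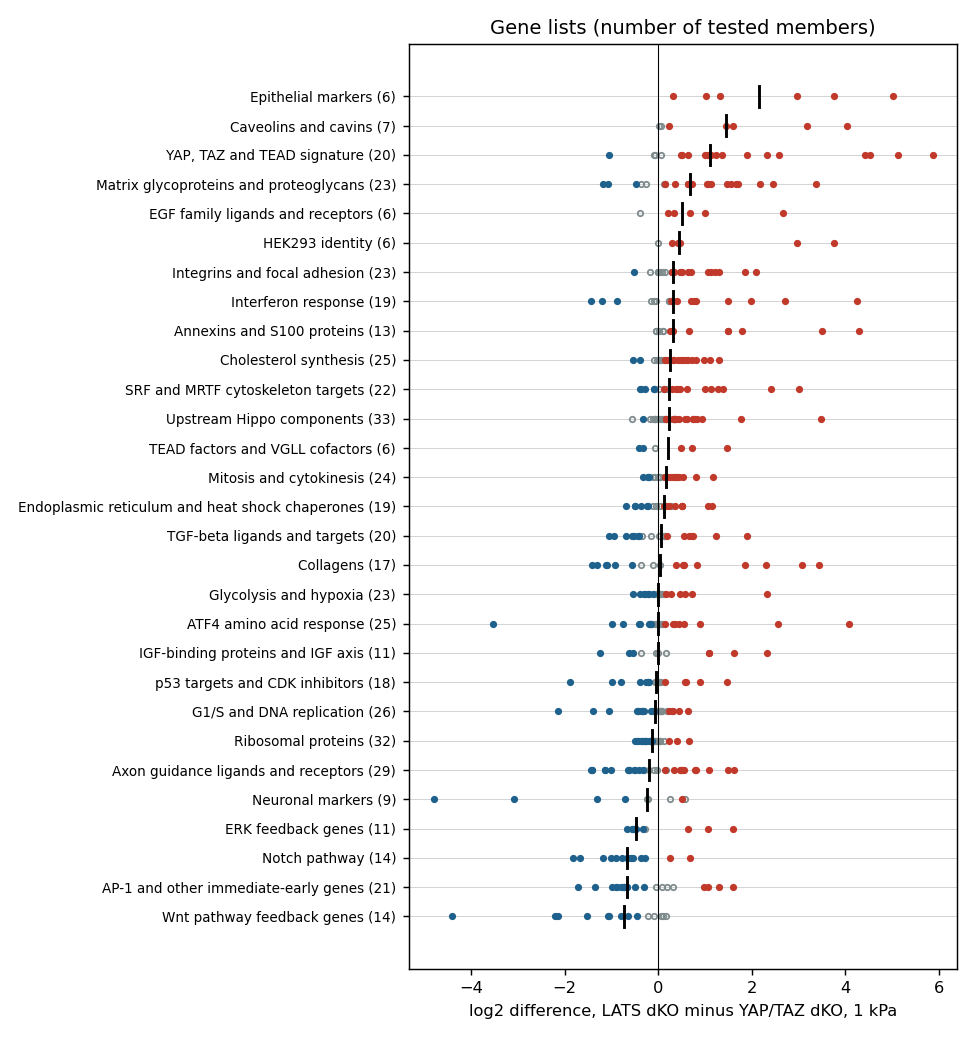
Log2 difference between LATS dKO and YAP/TAZ dKO on 1 kPa for the tested members of the gene lists with 5 or more tested genes, 1 point per gene, lists ordered by their median (black bar). Red points are called higher in LATS dKO, blue points called higher in YAP/TAZ dKO and open points not called. The epithelial list has the highest median (2.15) and the Wnt list the lowest (-0.73). Genes under 1 FPKM throughout one line passed the filter through the other alone, among them KRT19, CLDN7, CTGF, ANKRD1, MYOF, PTRF, LGR5 and SFRP1.

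The cell cycle lists moved little apart from a few genes. CCND1 (cyclin D1), which starts G1 and is also a Wnt target, had 29.9, 31.5 and 31.7 FPKM in LATS dKO and 133, 139 and 149 in YAP/TAZ dKO (difference -2.14, limma adjusted p = 5.47e-08). WT had 15.6 ± 1.26, so both lines were above WT at CCND1 and YAP/TAZ dKO the more so (0.95 and 3.09). CCND2 differed by -1.40 and the licensing factor CDT1 by -1.06. Over G1/S and replication 13 of 26 genes were called higher in YAP/TAZ dKO and 5 in LATS dKO, with a median of -0.06. Over mitosis 14 of 24 were called higher in LATS dKO and 4 lower, with a median of 0.16, led by CCNB1 (1.18), UBE2C (0.81) and KIF20A (0.54, or 0.22 from its neighbours). CCNB1 lies on a stretch of chromosome 5 with a median difference of 0.69. In both lists these shares stand beside 30.6% of all tested genes called higher in LATS dKO and 28.2% in YAP/TAZ dKO. MKI67, the proliferation marker, was not called (0.04). Among p53 targets and CDK inhibitors BBC3 (PUMA) differed by -1.90 and CDKN1A by -0.79, both higher in YAP/TAZ dKO, and TP53I3 by 1.46. Of 18 tested genes in the list 5 were called higher and 8 lower, beside the same shares of all genes. Against WT, BBC3 was higher in YAP/TAZ dKO (0.90) and lower in LATS dKO (-0.99). CDKN1A was called below WT in both lines, at -0.27 in YAP/TAZ dKO and -1.05 in LATS dKO. In LATS dKO 12 of the 18 were called below WT and 2 above, in YAP/TAZ dKO 11 and 3.

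Amino acid transport showed some of the widest gaps at high expression. SLC7A5 (LAT1, the importer of large neutral amino acids, ENSG00000103257.8, chr16:87863629-87903094) had 1176, 1228 and 1173 FPKM in LATS dKO and 72, 65.8 and 72.8 in YAP/TAZ dKO, with 681 ± 23.2 in WT (difference 4.07 ± 0.04, limma adjusted p = 1.12e-12). Its heavy chain partner SLC3A2 (CD98) had 1532, 1560.2 and 1507 and 278, 247 and 258 FPKM (difference 2.55). The gap came mostly from YAP/TAZ dKO, where SLC7A5 was -3.26 from WT, against 0.81 in LATS dKO. The list of ATF4-driven genes that holds both was otherwise even, 8 called higher in LATS dKO and 9 lower of 25, with a median of -0.001. The shares over all tested genes were 30.6% and 28.2%. DDIT4 (REDD1, a stress-induced inhibitor of mTORC1) was the far opposite, at 4.02, 4.25 and 4.58 FPKM in LATS dKO and 57.4, 59.7 and 62.2 in YAP/TAZ dKO (difference -3.53, limma adjusted p = 3.63e-10). ASNS differed by 0.54 (0.18 from its neighbours), and CHAC1 and DDIT3 were not called.

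Of other metabolic genes, cholesterol synthesis had 16 of 25 tested genes called higher in LATS dKO and 2 lower (median 0.26), against 30.6% of all tested genes called higher and 28.2% lower, with SC5D (1.29) and FDFT1 (1.11) the 2 at least 2-fold apart. Glycolysis and hypoxia genes had a median of 0.003, 6 called one way and 7 the other of 23. SLC2A3 (the glucose transporter GLUT3) was the exception, at 16.6, 20.3 and 17.5 FPKM in LATS dKO and 2.66, 2.71 and 3.14 in YAP/TAZ dKO (difference 2.32), while SLC2A1 was not called (0.04). Among chaperones HSPB1 and HSPA8 differed by 1.15 and 1.07, with 9 called higher in LATS dKO and 6 lower of 19. Of these 19 genes 7 lie in shifted stretches. The glycolysis and chaperone counts stand beside 30.6% of all tested genes called higher in LATS dKO and 28.2% lower. Ribosomal proteins were slightly lower in LATS dKO, 16 of 32 called lower and 3 higher, beside 28.2% and 30.6% of all tested genes, none of them 2-fold (median -0.12).

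Interferon-related genes were uneven. BST2 (tetherin) had 79.8, 67.6 and 65.6 FPKM in LATS dKO and 2.89, 2.59 and 2.79 in YAP/TAZ dKO, with 62 ± 2.96 in WT (difference 4.26), so YAP/TAZ dKO stood apart and LATS dKO was not called against WT. IFITM3 and IFITM2 differed by 2.71 and 1.49 but have near-identical copies. ISG15, IFI6 and IRF1 were not called, and the list stood at 10 called higher and 3 lower of 19, with a median of 0.31. Of all tested genes 30.6% were called higher in LATS dKO and 28.2% lower.

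Outside the lists, the largest difference of all was at AP1M2 (ENSG00000129354.11, chr19:10683347-10697991), the epithelial subunit of the AP-1 clathrin adaptor. It had 91 ± 8.7 FPKM in LATS dKO (SD, n = 3) and 0, 0.0714 and 0.13 in the YAP/TAZ dKO libraries, with 12.8 ± 0.554 in WT (difference 6.43 ± 0.15, limma adjusted p = 2.39e-10). Further genes among the 15 with the largest differences toward LATS dKO were TNNC1 (cardiac troponin C, 26.4 ± 1.08 and 0.336 ± 0.196 FPKM), GPRC5A (a retinoic acid-induced receptor, 32.4 ± 1.39 and 0.83 ± 0.192), VAMP8 (a vesicle SNARE, 29.7 ± 0.772 and 1.45 ± 0.454) and the pseudogene WFDC21P (22.2 ± 1.17 and 0.15 ± 0.0729). PROK1 (prokineticin) and LRRC7 (a synaptic scaffold), at 10.0 ± 0.749 and 12.8 ± 0.631 FPKM in LATS dKO, were under 0.2 FPKM in each YAP/TAZ dKO library. Toward YAP/TAZ dKO they were PLTP (phospholipid transfer protein, 0.483 ± 0.13 and 14.3 ± 0.625 FPKM), RAMP1 (a calcitonin-family receptor partner, 1.12 ± 0.393 and 19.2 ± 1.58), CTNNA3 (0.315 ± 0.212 and 10.3 ± 0.488), TRIB2 (0.354 ± 0.21 and 8.81 ± 0.604), RHBDL3 (0.594 ± 0.22 and 10.0 ± 0.311), EBF2 (0.0745 ± 0.0215 and 6.22 ± 0.283) and MXD4, a MYC antagonist (9.59 ± 0.398 and 70.1 ± 6.11). MXD4 and CTNNA3 were called against WT in YAP/TAZ dKO (2.62 and 3.22) and not in LATS dKO (-0.12 and 0.11). The 5S pseudogene RNA5SP284 was listed at 0 in all 3 LATS dKO and all 3 WT libraries and at 6.21, 4.98 and 5.65 FPKM in YAP/TAZ dKO.

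Some genes were on in one line and off in the other together with their neighbours on the chromosome. RFX7 (chr15:56379478-56535464), TEX9 (chr15:56536207-56738195) and NEDD4 (chr15:56119120-56285944), which lie close together on chromosome 15, were listed at 0 in all 3 LATS dKO libraries. In YAP/TAZ dKO the libraries had 6.45, 6.6 and 6.09 FPKM for RFX7, 4.82, 5.66 and 6.01 for TEX9 and 3.92, 3.28 and 3.62 for NEDD4. The WT libraries had 0, 0.00648 and 0 for RFX7, 0, 0 and 0.0191 for TEX9 and 0, 0.00467 and 0 for NEDD4, so of these 3 genotypes YAP/TAZ dKO alone held them. PUDP, at chrX:6966961-7066231, followed the same pattern, with 0.045, 0 and 0 FPKM in LATS dKO, 8.77, 8.99 and 8.38 in YAP/TAZ dKO and 0.00757 in WT. EMC10 (chr19:50979657-50994127), a subunit of the membrane protein insertion complex, was also near 0 in LATS dKO but expressed in WT. It had 0.0813, 0.0624 and 0.111 FPKM in LATS dKO, 26.9, 23.7 and 23.9 in YAP/TAZ dKO and 26.8 ± 8.85 in WT. Its overlapping neighbour FAM71E1 had 0, 0 and 0.12 FPKM in LATS dKO against 1.58, 1.41 and 1.5 in YAP/TAZ dKO. On chromosome 3, B3GALNT1 was listed at 0 in all 3 YAP/TAZ dKO libraries and had 4.93, 5.16 and 5.75 FPKM in LATS dKO, and TRIM59 nearby had 0.00627, 0.0249 and 0.0497 against 5.37, 5.66 and 5.9. NEDD4, TEX9, FAM71E1, B3GALNT1 and TRIM59 were chosen after their values were seen. In all, 16 genes with a mean of at least 5 FPKM in LATS dKO were under 0.2 in each YAP/TAZ dKO library, and 9 the reverse.

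Long stretches of several chromosomes differed as a whole. For each gene the median difference of the 50 nearest tested genes was taken, and stretches where it passed 0.4 in size held 1716 of the tested genes (11.8%). The longest, at chr3:97540884-197770591 in hg19, held 382 tested genes, 344 of them higher in LATS dKO, with a median of 0.62. Against WT the median there was -0.07 in LATS dKO and -0.69 in YAP/TAZ dKO, so the deviation lay with YAP/TAZ dKO. A stretch of 317 genes at chr14:50704281-105996539 (median 0.53) and 1 of 128 genes at chr5:52083730-82373682 (median 0.69) were of the same kind, with -0.41 and -0.61 in YAP/TAZ dKO against WT. At chrX:85116185-134716435 (144 genes, median 0.52) LATS dKO deviated instead, by 0.55 from WT. The ends of chromosomes 1 (76 genes, median -0.53) and 16 (75 genes, median -0.44) were lower in LATS dKO than in YAP/TAZ dKO. On chromosome 16 the median against WT was -0.02 in LATS dKO and 0.34 in YAP/TAZ dKO, so YAP/TAZ dKO deviated. On chromosome 1 both lines deviated, LATS dKO by -0.30 and YAP/TAZ dKO by 0.22.

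These stretches held 162 of the 539 genes called 2-fold higher in LATS dKO (30.1%) and 38 of the 429 called 2-fold higher in YAP/TAZ dKO (8.86%), against 11.8% of all tested genes. Taken as the difference from the median of the neighbours, 380 of the 539 and 330 of the 429 remained at least 2-fold. AMOTL2 kept 3.89, YAP1 1.80, CAV1 2.74, LAMB1 1.11, FLNA 1.00 and WWTR1 0.60. CCNB1 kept 0.49, HSPA8 0.60, HSPB1 0.66, SC5D 0.83 and FDFT1 0.52. The number of gene copies in these lines was not measured here.

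**Figure D4:**
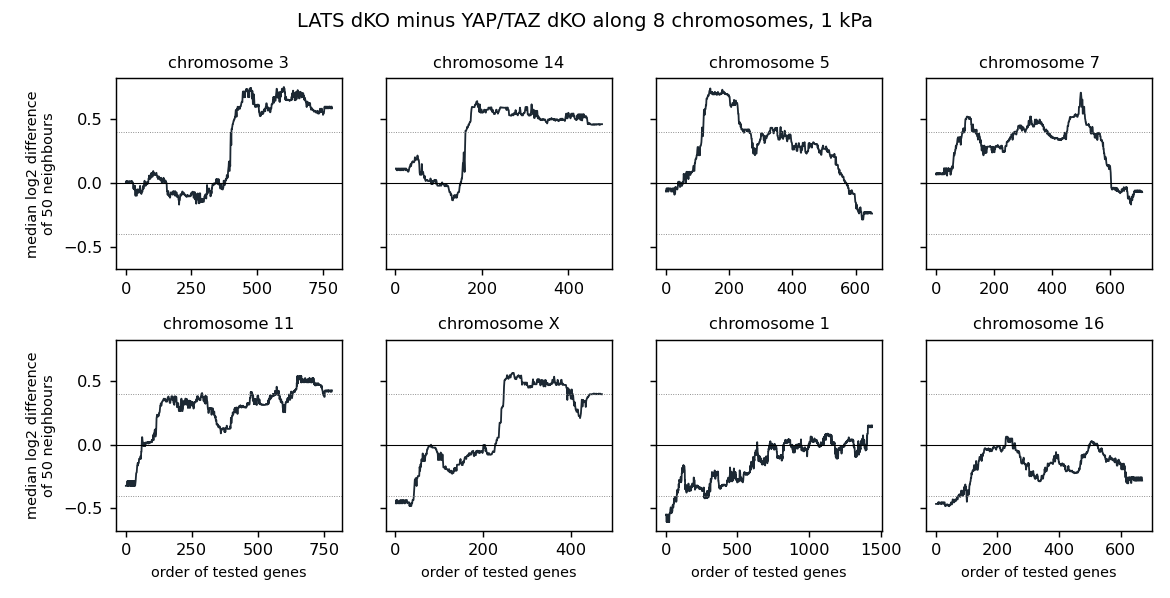
Median log2 difference (LATS dKO minus YAP/TAZ dKO, 1 kPa) of the 50 nearest tested genes (vertical axis) along 8 chromosomes, genes in order of position (horizontal axis). Dotted lines mark 0.4 in either direction; chromosomes 3 and 14 step up to about 0.5 or more and stay there to the end.

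Set against WT on the same matrix, the LATS dKO line differed from WT at 34.4% of tested genes (16.6% higher, 17.9% lower) and the YAP/TAZ dKO line at 51.4% (3477 genes higher, and 3982, or 27.5%, lower). Of the 539 genes 2-fold higher in LATS dKO, 336 were called higher in LATS dKO than in WT and 444 lower in YAP/TAZ dKO than in WT. Of the 429 genes 2-fold higher in YAP/TAZ dKO, 279 were called lower in LATS dKO than in WT and 360 higher in YAP/TAZ dKO than in WT. Both comparisons use the same WT libraries and the libraries that chose these genes, and the counts are given as a description. Genes called against WT in 1 line only included COL3A1, NRG1, TPM1 and BMP4, where LATS dKO minus WT was 3.28, 2.71, 2.38 and 2.01 and YAP/TAZ dKO was not called, and NEFL, MXD4, BST2 and IGFBP7, where YAP/TAZ dKO minus WT was 4.86, 2.62, -4.07 and -2.44 and LATS dKO was not called. That one was called and the other not does not by itself show that the 2 responses differ in size.

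The same lines on 40 kPa gave largely the same differences in libraries that played no part in choosing the genes. Of the 539 genes 2-fold higher in LATS dKO on soft matrix 528 had the same sign on stiff matrix, and 432 were again called and 2-fold. Of the 429 in the other direction 418 and 312 were, against 6.69% of all tested genes called and 2-fold on stiff matrix. Across the 14504 genes the differences on both matrices had a Pearson correlation of 0.823, as a description, since genes are not independent and the lines are the same. CTGF had 77.8, 84.1 and 83 FPKM in LATS dKO and 0.278, 0.235 and 0.152 in YAP/TAZ dKO on 40 kPa (difference 6.08), next to 5.86 on 1 kPa. NEFL had 16.7, 22 and 18.7 and 457, 457 and 456 (difference -4.52), and SLC7A5 973, 1257 and 1230.0 and 62.8, 57.7 and 61.8 (difference 4.22). The libraries of both lines stayed apart at all 3 genes. Among the exceptions was FOSB, at -1.72 on 1 kPa and at 0.18, not called, on 40 kPa.

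The difference between the lines depended on stiffness at 5 genes (0.0345%) by limma's interaction term, and 1172 genes had an unadjusted p under 0.05. LATS dKO replicate 1 on 40 kPa was the shallowest of the 24 libraries at 18.5 M fragments, and its gap to its group mean went with gene GC content (Spearman correlation -0.595 over genes, a description). Without it 52 genes were called, and with all other libraries of the series but that one and the similarly skewed RAP2 tKO replicate 3 on 40 kPa 645 were. The count of 5 is thus no measure of how few genes depend on stiffness. CTGF, ANKRD1, CYR61 and AMOTL2 were not among the 5 (interaction adjusted p in limma 0.577, 0.357, 0.721 and 0.817).

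**Figure D5:**
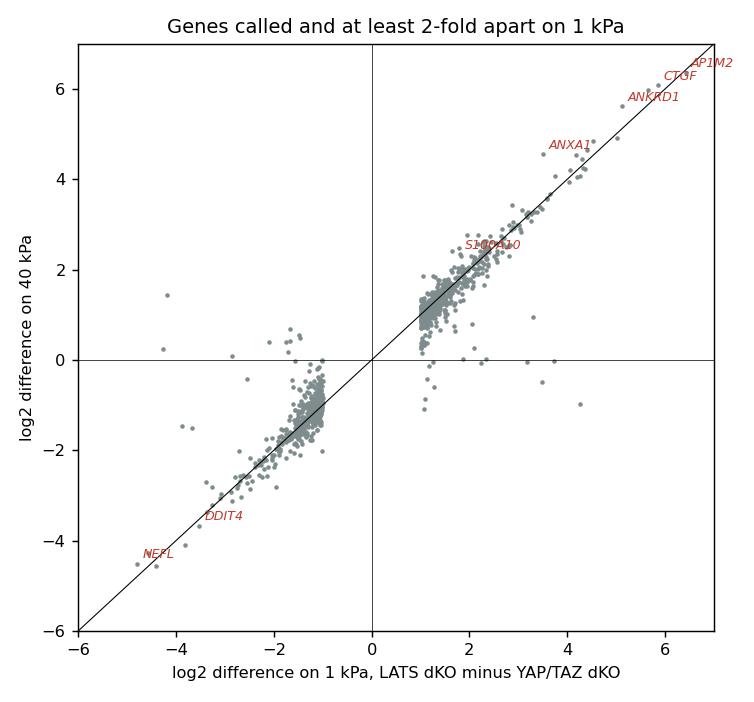
Log2 difference between LATS dKO and YAP/TAZ dKO on 40 kPa (vertical axis) against that on 1 kPa (horizontal axis) for the 968 genes called and at least 2-fold apart on 1 kPa, 1 point per gene, with the line of equal values. Most points lie along the line, 528 of 539 and 418 of 429 with the same sign; ANXA1 lies above it.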

How the data were processed

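Messenger RNA libraries of HEK293A cells were read as tables of FPKM per gene, 1 per library. The authors deposited these FPKM values, made per the submitters' processing notes with STAR 2.4.2a and Cufflinks 2.2.1 on hg19; neither the annotation release nor the strand setting is stated there, so overlapping and antisense genes may share fragments. FPKM were summed per gene symbol (338 symbols stood on several of 60350 entries), and 92 symbols with a failed or too-deep status in some library were left out. All 37 mitochondrial symbols are listed at 0, so a listed 0 can be a failed estimate. Fold changes were computed on log2(FPKM + 1), which understates them for low genes, with no further scaling.

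Genes with FPKM of at least 1 in 3 or more of the 6 libraries were tested with limma 3.58.1 in R 4.3.3, letting the prior variance follow mean expression, over the 12 libraries on 1 kPa (4 groups, 8 residual degrees of freedom). The test was two-sided, with Benjamini-Hochberg adjustment over all 14504 genes and a threshold of 0.05. The interaction with stiffness used the 12 libraries of both lines on both matrices. The labels call the replicates biological, without naming separate cultures. FPKM hold no counts; depth came from 1094 to 1290 genes per library through the width of the deposited confidence intervals. The script was tested on simulated data.

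The members and gene lists were chosen with earlier results of these data known. Named genes are the targeted genes, the tested signature members, the 15 called genes with the largest difference each way (libraries without overlap, mean FPKM of at least 5, no short RNAs or clone names), the first 6 genes on in one line and off in the other, up to 4 called members per list with the smallest p, members whose role is described, and interaction calls. FAT1, CCNA2 and PECAM1 were left out for their status. Some list members are not in the tables under the name used, and some are not reported here. The alternatives were other pseudocounts, filters, scalings, sets of libraries, moderation, a replicate block, leaving out each replicate, and, added after seeing the data, a GC correction, leaving out 2 GC-skewed libraries, and the difference from 50 neighbouring genes. Promoters are RefSeq's on GRCh38.p14.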

Additional observations from a re-analysis of the deposited data

Results flagged for a closer look

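At 4 named genes the difference between LATS dKO and YAP/TAZ dKO was not the same on both matrices, by limma's interaction term. At ANXA1 the difference was 1.06 larger on 40 kPa than on 1 kPa (adjusted p = 0.0163). ANXA1 had 42.2, 35.7 and 37.3 FPKM in LATS dKO and 0.673, 0.602 and 0.726 in YAP/TAZ dKO on 40 kPa, next to 49.9, 52.4 and 48.9 and 3.74, 3.79 and 3.09 on 1 kPa, so the gap was wide on both. At S100A10, the partner of annexin A2, it was 0.55 larger (adjusted p = 0.0134 in limma), from 1.80 on 1 kPa to 2.35 on 40 kPa. At SLC12A4, a potassium and chloride cotransporter, it was smaller by an interaction of -0.94 (adjusted p = 0.0246 in limma), with 25.1, 26.2 and 26.5 and 7.32, 6.8 and 8.08 FPKM on 1 kPa and 20.7, 19.9 and 21.8 and 11.4, 11.3 and 13.4 on 40 kPa. At TMCO6 the interaction was -0.55 (adjusted p = 0.0323 in limma), from 0.44 to -0.10. With the replicate number as a block limma called none of the 4 (adjusted p = 0.0594 for ANXA1 and S100A10, 0.0525 for SLC12A4 and 0.172 for TMCO6), and leaving out single libraries also ended the calls.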

How the results depend on the processing

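The count of called genes on 1 kPa stayed within 1.5 times of 8527 under every alternative run, from 6713 (FPKM of at least 5) to 9366 (no filter), and from 7751 to 7958 without single replicates. The 2-fold genes numbered 628 with FPKM of at least 5 and 1517 with a pseudocount of 0.1, both by construction, and 961 to 1022 without single replicates. Same-numbered libraries of both lines did not deviate together (correlations 0.018, -0.078 and -0.045), so the numbers do not pair them; with the replicate block 8409 genes were called, and none for the interaction. The interaction gave 2 calls with the GC correction, 12 with all 24 libraries, 16 with no filter, 645 with all libraries but 2 GC-skewed ones, a setting that also adds the other genotypes, and 0 to 52 without single replicates. Of 196 called genes named in the text or picked by its rule, 184 kept their call under every alternative that gave a test. ACTG1, BCAR1, CDT1, ERBB4, ETV5, F3, JAG2, RAP2B, RBMS3, TAOK2, VGLL3 and VGLL4 lost it in at least 1. Called genes changed sign in 4 cases, all as the difference from 50 neighbours (GAP43 -0.2, JAG2 -0.209, RAP2B -0.48 and RAP2C -0.14). Genes not called changed sign with the GC correction (-0.113 for ANXA4, -0.012 for DOCK5, 0.099 for ISG15, -0.018 for MKI67, -0.076 for RAP2A, -0.058 for STK4 and 0.067 for TEAD3) and, for ANXA4, when scaled (-0.004). Without single replicates they ranged from -0.037 to 0.061 for ANXA4, -0.094 to 0.041 for CDH2, -0.005 to 0.063 for COL1A1, -0.093 to 0.163 for DOCK5, -0.102 to 0.006 for IFI6, -0.02 to 0.059 for ILK, -0.009 to 0.438 for MAPT, -0.036 to 0.053 for PTK2, -0.002 to 0.115 for RAP2A, -0.007 to 0.123 for SLC2A1, -0.111 to 0.011 for STK3, -0.011 to 0.079 for STK4 and -0.137 to 0.029 for TEAD3. Medians near 0 changed sign. Without single replicates they ranged from -0.002 to 0.063 for collagens, -0.037 to 0.109 for TGF-beta, -0.09 to 0.045 for IGF, -0.022 to 0.042 for ATF4 and -0.016 to 0.034 for glycolysis. The IGF median was 0.047 with the GC correction, and the glycolysis median -0.012 when scaled. The cause was not tested. The difference followed GC content weakly (rank correlation across 14309 genes -0.216). Genes with few FPKM rest on few fragments.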
